A study of Mus musculus with 4 samples.

Results

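Matrix metalloproteinases (MMPs) are zinc-dependent enzymes, most of them secreted, that cut collagens and other proteins of the extracellular matrix. The mouse genes *Mmp13*, *Mmp12*, *Mmp3*, *Mmp10*, *Mmp8*, *Mmp27*, *Mmp20* and *Mmp7* lie side by side on chromosome 9. The regions described here are those of the ATAC-seq count table that overlapped one of these 8 genes, a gap between them or the 50 kb on either side (GRCm38, GENCODE M21). They numbered 56 of 255864 regions, and 44 of them remained without the flanks.

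ATAC-seq, in which a transposase tags open DNA so that read density measures accessibility, was done on primary osteoblasts of 3-day-old C57BL/6 mice. WT mice, labelled wild type, were compared with TCKO mice, which are *Prx1-Cre* animals homozygous for floxed (fl/fl) alleles of *Tet1*, *Tet2* and of *Tet3*. *Prx1-Cre* is active in mesenchymal cells of the limbs and of part of the skull, and the TET enzymes it removes oxidise 5-methylcytosine. Whether the WT mice carried floxed alleles without Cre was not stated. The labels list 4 samples, 2 per genotype, while a protocol text speaks of 3 repeats. Counts were deposited with the replicates of a genotype already merged into 1 column. No replicate spread or test of genotype can be given, and each difference compares 2 merged columns.

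*Mmp13* encodes collagenase 3, which is made by osteoblasts and hypertrophic chondrocytes and is a known target of RUNX2. AP-1, the FOS and JUN dimer, is known to act together with RUNX2 at the *Mmp13* promoter. *Mmp3* and *Mmp10* encode stromelysins, *Mmp12* encodes the elastase of macrophages, *Mmp8* the collagenase of neutrophils, *Mmp20* enamelysin of tooth-forming ameloblasts and *Mmp7* matrilysin of epithelia. *Mmp1a* and *Mmp1b*, related to human interstitial collagenase, lie in the same stretch.

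The promoter sequences are shown because start regions of the cluster differed in opposite directions between the genotypes. RefSeq promoters of GRCm38.p6, from 250 bases before a start to 50 after it, were found for 10 of the 10 genes. The promoters of *Mmp13* (chr9:7272264-7272563, plus strand) and *Mmp10* (chr9:7502092-7502391, plus strand) follow in the gene's direction, with AP-1 letters (TGAGTCA or its reverse complement TGACTCA) and Runt letters (TGTGGT or TGCGGT, or their reverse complements) in capitals.
Mmp13: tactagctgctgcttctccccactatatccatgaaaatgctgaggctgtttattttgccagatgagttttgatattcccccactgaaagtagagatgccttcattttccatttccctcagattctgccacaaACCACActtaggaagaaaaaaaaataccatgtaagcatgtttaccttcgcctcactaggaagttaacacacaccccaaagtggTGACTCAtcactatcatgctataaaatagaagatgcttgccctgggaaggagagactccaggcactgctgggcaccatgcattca
Mmp10: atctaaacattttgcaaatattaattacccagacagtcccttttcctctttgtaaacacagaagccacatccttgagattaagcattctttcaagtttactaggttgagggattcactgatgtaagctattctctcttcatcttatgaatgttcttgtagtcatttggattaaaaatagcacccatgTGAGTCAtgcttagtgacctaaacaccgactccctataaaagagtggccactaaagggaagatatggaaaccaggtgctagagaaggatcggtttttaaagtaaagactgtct
In *Mmp13* a Runt match began 118 bases before the RefSeq start and an AP-1 match 35 bases before it. In *Mmp10* an AP-1 match began 63 bases before the start, and no Runt letters were in the window.

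The 10 genes have 12 RefSeq promoters, 2 each for *Mmp12* and *Mmp7*. AP-1 letters were in 7 of the 12, each of a different gene, against 5.20% of all 32851 RefSeq promoters. These promoters are not independent draws, since the genes are related copies. The 80 bases around each match are printed in the gene's direction, with the AP-1 letters and the TATAAA that follows them in capitals. The TATAAA letters were chosen after the sequences had been read, and they are in 8.32% of all promoters. They also began 58 bases before the start of *Mmp20*, whose promoter had no AP-1 letters. The promoters of *Mmp8*, *Mmp27*, the first *Mmp12* start and the second *Mmp7* start did not hold them in the gene's direction.
Mmp13, chr9:7272464-7272543 (+): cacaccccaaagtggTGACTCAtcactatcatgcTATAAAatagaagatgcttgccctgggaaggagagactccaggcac
Mmp12 (second RefSeq start), chr9:7347315-7347394 (+): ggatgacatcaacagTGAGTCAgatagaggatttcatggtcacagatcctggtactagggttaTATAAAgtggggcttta
Mmp3, chr9:7445761-7445840 (+): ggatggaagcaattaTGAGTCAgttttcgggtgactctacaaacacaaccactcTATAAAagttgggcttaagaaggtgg
Mmp10, chr9:7502264-7502343 (+): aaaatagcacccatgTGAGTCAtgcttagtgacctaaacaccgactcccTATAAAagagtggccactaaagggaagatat
Mmp7, chr9:7692012-7692091 (+): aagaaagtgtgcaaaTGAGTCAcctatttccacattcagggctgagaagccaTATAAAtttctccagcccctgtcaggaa
Mmp1b, chr9:7388055-7388134 (-): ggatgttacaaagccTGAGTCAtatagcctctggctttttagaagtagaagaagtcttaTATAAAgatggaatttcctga
Mmp1a, chr9:7464053-7464132 (+): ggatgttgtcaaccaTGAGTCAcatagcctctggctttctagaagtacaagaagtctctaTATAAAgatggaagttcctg
Between the end of the AP-1 letters and TATAAA there were 12 bases in *Mmp13*, 27 in *Mmp10*, 30 in *Mmp7*, 32 in *Mmp3*, 37 in *Mmp1b*, 38 in *Mmp1a* and 41 at the second start of *Mmp12*. *Mmp13* therefore had the shortest spacing of the 7. *Mmp8*, *Mmp27* and *Mmp20* had no AP-1 letters in these windows. Runt letters were in 5 of the 12 promoters, those of *Mmp13*, *Mmp8*, *Mmp27*, *Mmp7* (second start) and *Mmp1b*, against 22.4% of all promoters. A match is a description of letters and not evidence of binding.

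The TCKO counts were scaled to the WT total, 1 count was added to both genotypes, and values are the log2 ratio of TCKO to WT. Ranges in parentheses are 95% Wilson counting intervals, which cover counting error only, since reads are not independent molecules. The regions summed to 56898657 counts in WT against 34608167 in TCKO. Another scaling, from the background level recovered from the peak caller's values, lowered the median of all regions from 0.06 to -0.54. A ratio under it is given as the background-scaled ratio, and differences between regions of the cluster do not depend on this choice.

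At the start of *Mmp13* (ENSMUSG00000050578, 7272514 to 7283331, plus strand) a region of 380 bp at 7272309 to 7272688 held 212 WT counts and 92 TCKO counts. The log2 ratio was -0.48 (-0.84 to -0.13), and the background-scaled ratio was -1.09. It overlaps the upstream sequence and the first exon. The peak caller's summit had a pileup of 27 reads and a fold enrichment of 8.28 in WT, against 14 reads and 4.90 in TCKO. A peak was thus called there in both genotypes, with the lower summit in TCKO before any scaling. Pileups, here and below, are reads not scaled between the genotypes. They are therefore not comparable with the scaled ratios and are no separate measure of a difference. The *Mmp13* locus, which is the gene with 2 kb before its start, held 243 and 117 counts over 2 regions and had a ratio of -0.34 (-0.65 to -0.02). Its other region, in an intron, held 31 and 25 counts, and its interval (-0.34 to 1.16) included 0. With 25 kb on either side of the gene the ratio was -0.07 (-0.24 to 0.09).

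At the start of *Mmp10* (ENSMUSG00000047562, 7502352 to 7510240, plus strand) a region at 7502189 to 7502489 held 30 WT counts and 79 TCKO counts. The log2 ratio was 2.08 (1.51 to 2.72), the highest of the 56 regions, and the background-scaled ratio was 1.47. A summit was called in TCKO alone, with a pileup of 17 reads and a fold enrichment of 6.19. This was the single region of the *Mmp10* locus. With 25 kb on either side the ratio was 1.53 (1.26 to 1.82), and most regions of that span also had a summit in TCKO alone.

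The difference between these 2 starts was 2.60 on the log2 scale (1.90 to 3.30). The *Mmp10* region entered the table through its TCKO summit alone, so its ratio, this difference and their intervals are conditioned on a high TCKO value and are given as a description. Against the same *Mmp13* region, the *Mmp1b* start was higher by 1.81 (1.38 to 2.24), the *Mmp1a* start by 1.53 (0.97 to 2.08) and the region nearest the *Mmp12* start by 1.19 (0.63 to 1.74). The *Mmp27* start (0.74, -0.00086 to 1.49) and the *Mmp3* start (0.36, -0.44 to 1.17) had intervals that reached 0. The *Mmp13* start ratio minus that of the neighbouring gene *Dcun1d5* was -0.45 (-0.82 to -0.07), and minus that of *Tmem123* it was -0.52 (-0.88 to -0.15). Both genes lie outside the cluster and were chosen after the values were seen. Their start regions held 1181 and 698 counts (*Dcun1d5*) and 1994 and 1237 counts (*Tmem123*).

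**Figure D1:**
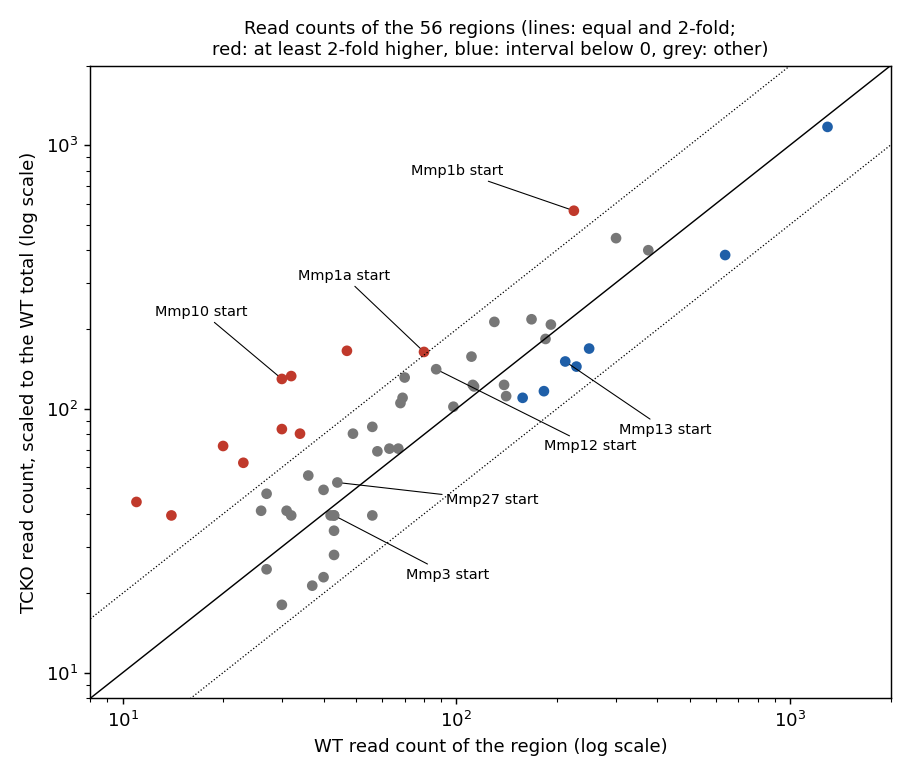
WT read count of each of the 56 regions (x axis, log scale) against its TCKO count scaled to the WT total (y axis, log scale), 1 point per region. The *Mmp10* and *Mmp1b* start regions sit above the upper 2-fold line, the *Mmp1a* start region just above it, and the *Mmp13* start region below the line of equality.

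The stromelysin gene *Mmp3* (ENSMUSG00000043613, 7445822 to 7455975, plus strand) held 268 and 119 counts over 3 regions, a ratio of -0.45 (-0.76 to -0.14). Under background scaling *Mmp3* was at -1.06, past 2-fold lower. Its start region (7445721 to 7445864) held 43 and 24 counts, with an interval of -0.84 to 0.59 and a summit in WT alone. Most of the locus counts lay in an intronic region at 7453259 to 7453607, named after its values were seen, which held 183 and 71 counts (-0.64, -1.04 to -0.25) with pileups of 35 and 12 reads. With 25 kb on either side the *Mmp3* ratio was 0.049 (-0.19 to 0.29), and this wider span takes in the *Mmp1a* start.

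The 2 collagenase relatives had more counts in TCKO than in WT before any scaling. The region at the *Mmp1b* start (7387886 to 7388800; gene ENSMUSG00000041620, minus strand, overlapping the end of *Mmp12*) held 225 and 343 counts, a ratio of 1.32 (1.08 to 1.57) with pileups of 24 and 32 reads. The region at the *Mmp1a* start (7463797 to 7464172; gene ENSMUSG00000043089, a polymorphic pseudogene in the annotation) held 80 and 100 counts, a ratio of 1.03 (0.62 to 1.46) with pileups of 11 and 21 reads. Their background-scaled ratios were 0.71 and 0.43. Their promoters were identical at 74.7% of aligned columns. The study's methods kept uniquely mapped reads only, and how much of these 2 related genes can be mapped uniquely was not tested.

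The other members lay between these extremes. *Mmp12* (ENSMUSG00000049723, 7344381 to 7369499) held 199 and 161 counts over 2 regions, a ratio of 0.41 (0.11 to 0.71), but its background-scaled ratio was -0.20. The region nearest its start, at 7343248 to 7343448, held 87 and 86 counts (0.69, 0.27 to 1.13). *Mmp20* (ENSMUSG00000018620, 7628231 to 7674979) held 667 and 492 counts over 8 regions, a ratio of 0.28 (0.11 to 0.45), with -0.33 under background scaling. *Mmp7* (ENSMUSG00000018623, 7692090 to 7699585) held 78 and 70 counts over 2 regions, a ratio of 0.56 (0.10 to 1.02), with -0.047 under background scaling. *Mmp27* (ENSMUSG00000070323, 7571396 to 7581885) held 252 and 179 counts over 3 regions (0.22, -0.05 to 0.50), with -0.38 under background scaling. *Mmp8* (ENSMUSG00000005800, 7558456 to 7568485) held 36 and 34 counts in 1 region (0.62, -0.04 to 1.30). The intervals of *Mmp27* and *Mmp8* over the gene and its 2 kb included 0. For *Mmp27* the direction depended on the span, with 0.35 (0.06 to 0.65) within 2 kb of the start and -0.16 (-0.26 to -0.07) with 25 kb on either side. With 25 kb on either side, *Mmp20* was at 0.036 (-0.071 to 0.14) and *Mmp7* at 0.16 (0.0026 to 0.32), and within 2 kb of its start *Mmp7* was at 0.076 (-0.47 to 0.63). The starts of *Mmp8*, *Mmp20* and *Mmp7* had no region within 1 kb.

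In order from lowest to highest, the loci were *Mmp3*, *Mmp13*, *Mmp27*, *Mmp20*, *Mmp12*, *Mmp7*, *Mmp8* and *Mmp10*. The intervals of *Mmp3* and *Mmp13* overlapped each other, that of *Mmp13* also reached those of *Mmp27* and *Mmp8*, and the intervals overlapped among the 5 loci from *Mmp27* to *Mmp8*, while that of *Mmp10* lay above all the others. The intervals of 2 of 8 member loci were below 0 and those of 4 were above 0. Among 18073 protein-coding loci these shares were 32.8% and 23.6%. The median over the members was 0.34, against -0.03 over all loci, and under background scaling it was -0.26. Of the 4 loci above 0, *Mmp10* rested on a region with a summit in TCKO alone, and *Mmp7* and *Mmp20* each included such a region. The member counts and median are therefore given as a description.

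**Figure D2:**
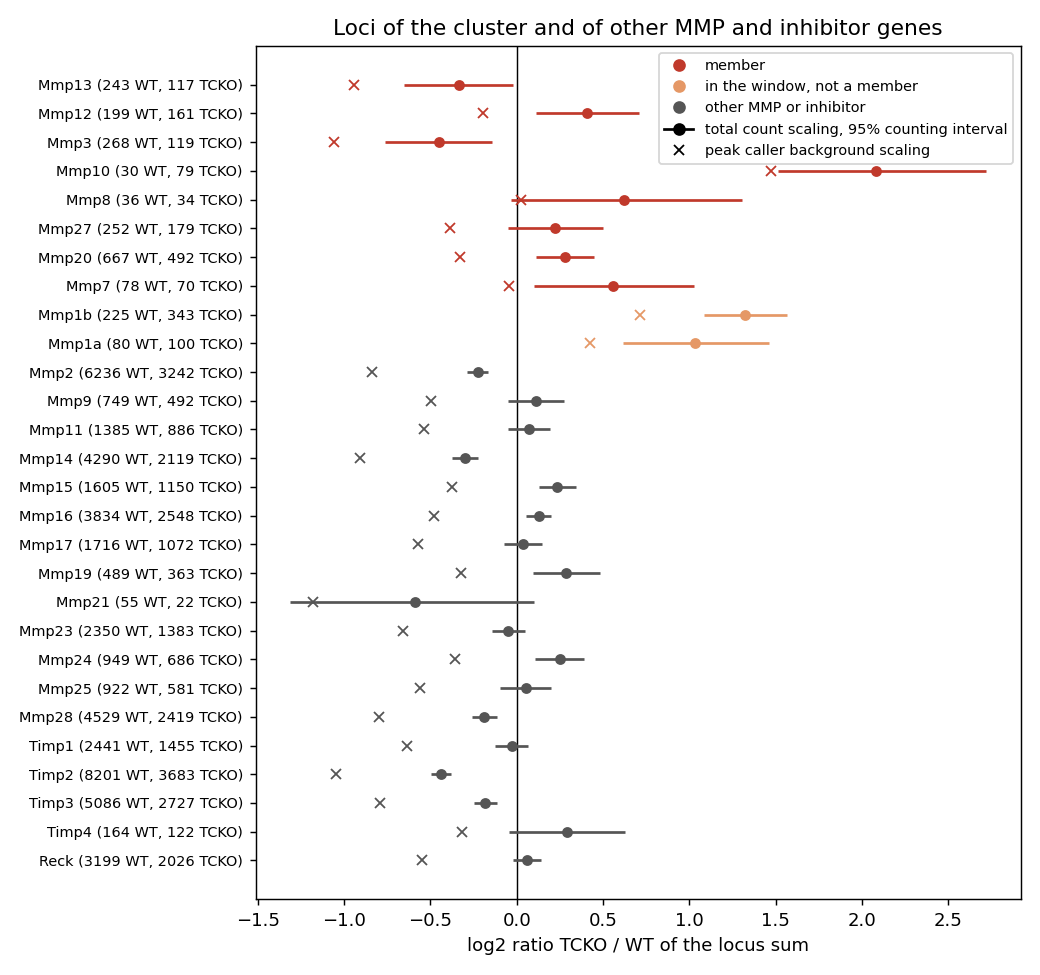
log2 ratio of TCKO to WT for the summed counts of each locus, with the member loci in red, *Mmp1a* and *Mmp1b* in orange and other MMP and inhibitor genes in grey. Points with bars are total count scaling with 95% counting intervals and crosses are background scaling. *Mmp10* lies farthest to the right at 2.08, and *Mmp13* and *Mmp3* lie left of 0 under both scalings.

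Outside the cluster, 18 genes of the family and its inhibitors were summed in the same way. The intervals of 5 were below 0 and those of 4 above 0, none differed 2-fold by total count scaling, and their ratios ran from -0.59 (*Mmp21*) to 0.29, with a median of 0.04. Under background scaling the median was -0.56, and *Mmp21* (-1.18) and *Timp2* (-1.05) were past 2-fold lower. *Mmp14*, a membrane-bound collagenase of bone cells, held 4290 and 2119 counts (-0.30, -0.38 to -0.23), *Mmp2*, a gelatinase, 6236 and 3242 (-0.23, -0.29 to -0.17) and the inhibitor *Timp2* 8201 and 3683 (-0.44, -0.49 to -0.38). *Mmp9*, the gelatinase of osteoclasts, held 749 and 492 counts, a ratio of 0.11 with an interval that included 0. Member loci were thin by comparison, with a median of 10.9 WT counts per kb against 62.0 in these genes.

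Across the window of 527 kb, from 7222514 to 7749585, the regions covered 3.23% of the sequence, and the midpoints of 37 lay between genes, of 17 in introns and of 2 in exons. The summed counts were 6805 in WT and 4681 in TCKO, a ratio of 0.18 (0.12 to 0.23), which was -0.43 under background scaling. At least 2-fold lower in TCKO were 0 of the 56 regions, against 4.51% of all regions, and 11 (19.6%) were at least 2-fold higher, against 12.3%. Of these 11, 8 had a summit in TCKO alone and so entered the table only through the genotype in which they were high, and over all regions 63.6% of those at least 2-fold higher did so. Of the 48 regions of the cluster with a WT summit, 3 (6.25%) were at least 2-fold higher, against 4.98%. The intervals of 7 regions were below 0 and of 22 above 0, against 18.9% and 29.5% of all regions. Under background scaling, 11 were at least 2-fold lower, against 19.9%, and 5 at least 2-fold higher, against 3.91%. The median ratio of the 56 was above that of all regions by 0.19 under either scaling, and by 0.07 after a loess fit of the ratio on the count.

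**Figure D3:**
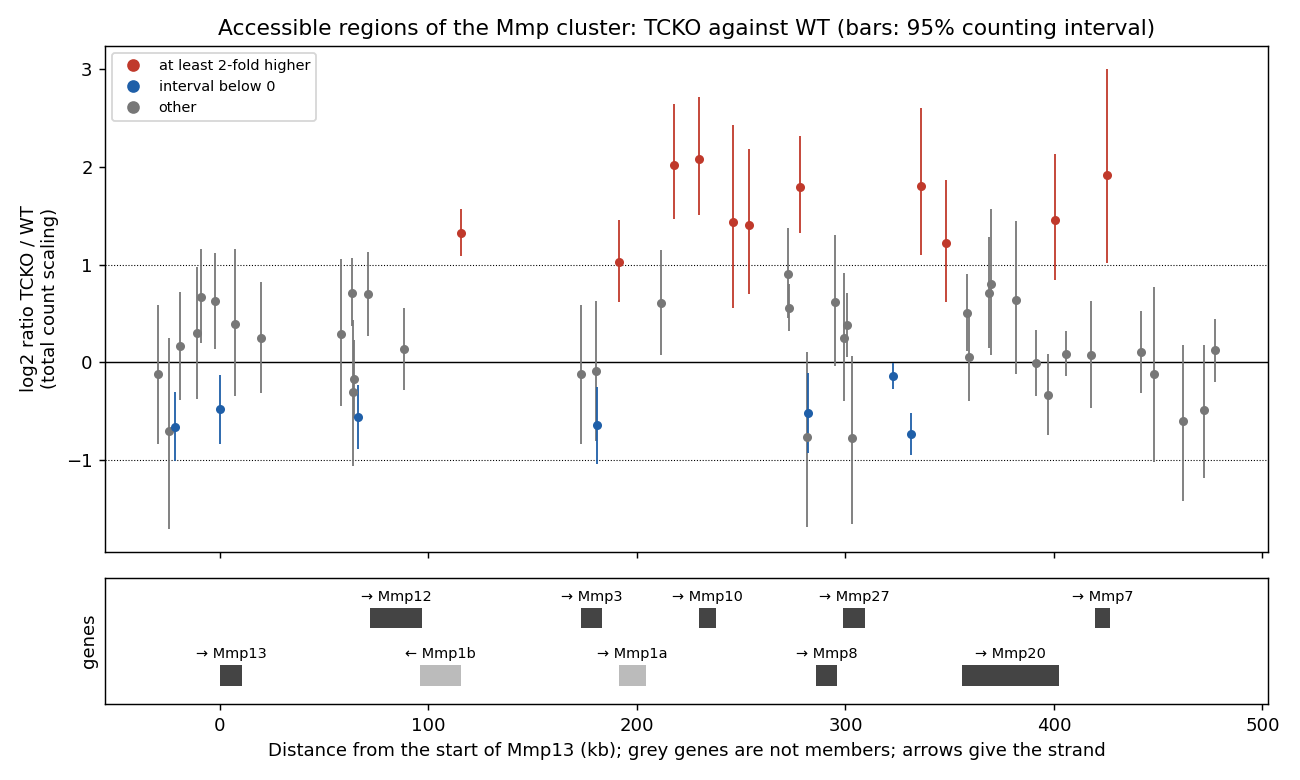
log2 ratio of each region by distance in kb from the start of *Mmp13* (upper panel, bars are 95% counting intervals) above the genes of the cluster (lower panel, arrows give the strand). Regions at least 2-fold higher (red, 11) and regions with an interval below 0 (blue, 7) both occur along the cluster. The 4 regions between *Mmp3* and *Mmp10* all have intervals above 0, and they include regions with a summit in TCKO alone.

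Between *Mmp3* and *Mmp10* the 4 regions summed to 198 counts in WT and 312 in TCKO, a ratio of 1.37 (1.12 to 1.63), and all 4 intervals were above 0. These include the *Mmp1a* start and the *Mmp10* start. A region between them, at 7490301 to 7490579 and 11.9 kb before *Mmp10*, held 32 and 81 counts (2.02, 1.47 to 2.64), with a summit in TCKO alone. This region and the *Mmp10* start region entered the table through a TCKO summit alone. The summed ratio of this gap and its interval are therefore given as a description. Between *Mmp10* and *Mmp8*, 7 regions summed to 650 and 593 counts, a ratio of 0.58 (0.42 to 0.75), which was -0.02 under background scaling. There, a region at 7550368 to 7550684 held 47 and 101 counts (1.80, 1.32 to 2.32), and one at 7526308 to 7526504 held 23 and 38 (1.40, 0.70 to 2.18), both with a summit in TCKO alone. By contrast, a region at 7554185 to 7554657, named after its values were seen, held 158 and 67 (-0.52, -0.93 to -0.11), with pileups of 33 and 13 reads. The region of this gap with most counts, at 7545443 to 7545823, held 301 and 270 (0.56, 0.32 to 0.80). The sum of this gap also includes regions with a summit in TCKO alone and is likewise a description.

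The gap between *Mmp27* and *Mmp20* held the most counts of any segment, 29.2% of the WT counts of the window and 22.2% of the TCKO counts. Its 4 regions differed in direction. A region of 800 bp at 7594846 to 7595645 had the most counts of the cluster, 1295 in WT and 713 in TCKO (-0.14, -0.28 to -0.01), with pileups of 66 and 56 reads. The next, at 7603436 to 7604414, held 639 and 233 counts (-0.74, -0.95 to -0.52), with pileups of 36 and 25 reads. By contrast, a region at 7608842 to 7609018, with a summit in TCKO alone, held 20 and 44 counts (1.80, 1.10 to 2.61). Another, at 7620468 to 7620656, held 34 and 49 (1.22, 0.62 to 1.87). The summed ratio of the gap was -0.22 (-0.33 to -0.11).

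Upstream of *Mmp13*, a region 21.5 kb before the start, at 7250688 to 7251263, held 229 and 88 counts (-0.66, -1.02 to -0.31), with pileups of 27 and 14 reads. Nearer the start, 2 regions named after their values were seen had intervals above 0. One, 2.2 kb before the start and just outside the *Mmp13* locus, held 68 and 64 counts (0.62, 0.14 to 1.12). The other, 9.1 kb before it, held 69 and 67 counts (0.67, 0.19 to 1.16). Before *Mmp12*, a region at 7338467 to 7338795 held 250 and 103 counts (-0.56, -0.89 to -0.23), with pileups of 40 and 17 reads. Over an exon of *Mmp20*, where the antisense gene *AV064505* also lies, a region at 7673056 to 7673246 held 30 and 51 counts (1.45, 0.84 to 2.13), with a summit in TCKO alone. Of the other regions with many counts, those at 7572802 to 7573262 in *Mmp27* (168 and 133, ratio 0.38, 0.05 to 0.71), 7678079 to 7678838 (376 and 243, ratio 0.09, -0.14 to 0.32) and 7749503 to 7749880 (192 and 127, ratio 0.12, -0.20 to 0.44) had smaller ratios, and the intervals of the last pair included 0. The remaining 2 of the 11 higher regions held 38 counts each and had a summit in TCKO alone, and 1 of them lay in *Mmp7*.

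Regions with few counts made up most of the higher calls. The 10 regions with most counts had a median ratio of -0.03, with 5 intervals below 0 and 3 above. The other 46 had a median of 0.29, with 2 intervals below 0 and 19 above. Of these 46, 10 (21.7%) were at least 2-fold higher, against 12.3% of all regions of any count. The share over all regions of like count was not computed, so this is not given as a trait of the cluster. A region entered the table when it was called in either genotype. Of the 56 regions, 55.4% had a summit in both lists, 30.4% in WT alone and 14.3% in TCKO alone, against 56.8%, 33.0% and 10.2% of all regions.

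The sequences of 2 distal regions at least 2-fold higher in TCKO are shown because both hold AP-1 letters away from a start. They are the central 200 bases of the region 11.9 kb before *Mmp10* and the whole region of 177 bases before *Mmp20*, on the plus strand of GRCm38, with AP-1 and Runt letters in capitals.
before Mmp10, chr9:7490340-7490539: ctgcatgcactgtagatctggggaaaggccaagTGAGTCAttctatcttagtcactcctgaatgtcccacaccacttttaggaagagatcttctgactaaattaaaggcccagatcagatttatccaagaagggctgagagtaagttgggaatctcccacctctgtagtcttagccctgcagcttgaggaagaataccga
before Mmp20, chr9:7608842-7609018: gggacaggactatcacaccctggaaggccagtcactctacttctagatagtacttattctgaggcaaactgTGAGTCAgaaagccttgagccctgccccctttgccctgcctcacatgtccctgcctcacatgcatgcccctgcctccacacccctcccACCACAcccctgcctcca
AP-1 letters were in the central 200 bp of 13 of the 56 regions (23.2%, against 18.6% of all regions). Of these 13, 5 were at least 2-fold higher, and of the 43 without, 6 were. Over all regions the shares were 22.2% with and 10.01% without AP-1 letters. Median ratios were 0.69 with and 0.16 without in the cluster, and 0.44 and -0.003 over all regions. The 5 higher regions with AP-1 letters include the *Mmp10* start region and the 2 distal regions shown, which had a summit in TCKO alone. Such regions entered the table only through the genotype in which they were high, so these shares and medians are given as a description. The *Mmp13* start region was among the 13 and had a ratio below 0. The 43 include regions with AP-1 letters outside the central 200 bp, among them the *Mmp1b* start region (1.32). The split therefore does not separate regions with and without AP-1 letters over their whole length. Runt letters were in 14 (25%, against 24.5%), with medians of 0.32 with and 0.19 without. The *Mmp13* start region was not among these 14, since its Runt letters do not lie wholly inside the central 200 bp. GGAATG, the letters read by TEAD factors, were in 12 (21.4%, against 16.3%), and TAATTA, read by homeobox factors, in 2 (3.57%, against 2.47%).

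**Figure D4:**
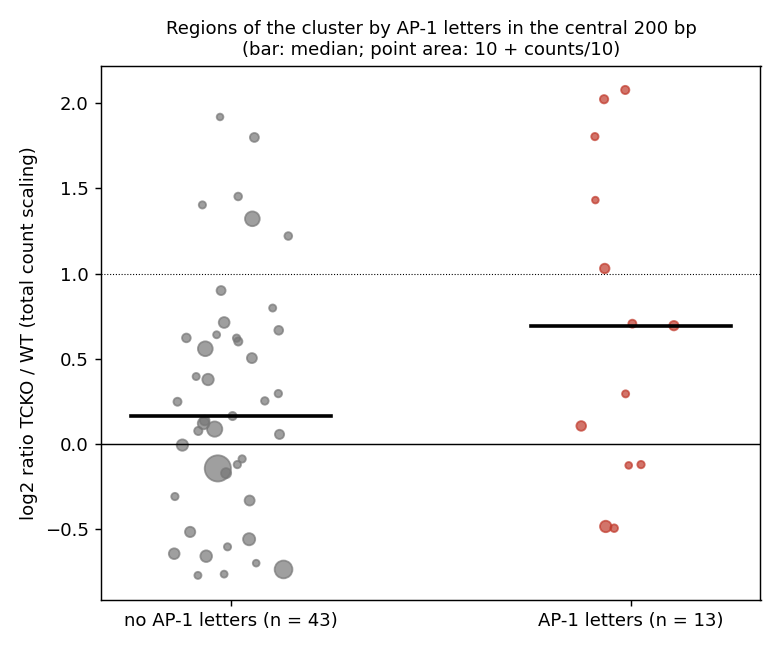
log2 ratio of the 56 regions split by AP-1 letters in their central 200 bp (43 without, 13 with), 1 point per region with its area set by the summed counts, and bars at the medians. The medians are 0.16 without and 0.69 with the letters, and both groups span values below 0 and above 1. Both groups include regions with a summit in TCKO alone.

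CpG dinucleotides, the sites at which TET enzymes act, were sparse. The central 200 bp held a median of 1 CpG, against 2 over all regions, and 30.4% held none, against 16.2%. Of the 56 regions, 0 held 10 or more, against 6.66% of all regions. The *Mmp13* start region held 1 CpG and the *Mmp10* start region 3 over their whole length, and the region at 7603436 to 7604414 held 10.

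In bulk samples, fewer cells of a type and less open chromatin per cell cannot be told apart, so markers of other cell types were summed in the same way. All 8 osteoblast markers had regions (28950 and 16892 counts, median ratio -0.12, or -0.72 under background scaling). In the same order of scalings, so did 5 of 6 chondrocyte markers (10686 and 5970, median -0.18 or -0.79, none at *Col10a1*), 8 of 8 macrophage and osteoclast markers (6710 and 4324, median -0.06 or -0.66), 3 of 6 neutrophil markers (476 and 333, median -0.27 or -0.87, none at *S100a9*, *Elane* or *Ly6g*), 1 of 3 ameloblast markers (42 and 53, *Enam* at 1.04 or 0.43, none at *Amelx* or *Ambn*), both keratinocyte markers (333 and 211, median -0.07 or -0.68) and 1 of 2 muscle markers (50 and 29, ratio -0.07 or -0.66, none at *Myog*). The 3 endothelial markers (4824 and 3753) all had intervals above 0 by total count scaling, with a median of 0.47, or -0.14 under background scaling. By total count scaling, *Enam* of the ameloblast list (0.47 to 1.63) and *Cxcr2* of the neutrophil list (1.07, 0.74 to 1.41) were at least 2-fold higher. The neutrophil, macrophage and osteoclast, and keratinocyte sums had ratios of 0.20, 0.08 and 0.06, opposite in sign to their medians. Among osteoblast markers 3 intervals were below 0 and 1 above (*Spp1*, 0.47). Among macrophage and osteoclast markers 1 was below 0 and 2 above (*Acp5*, 0.60, and *Cd68*, 0.42). The part of these cells in the cluster's values was not tested.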

How the data were processed

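The 4 ATAC-seq samples were 2 WT and 2 TCKO per the labels, and the deposited table of raw read counts per region held 1 merged column per genotype, so no p-value was computed. According to the study's methods, reads were aligned to GRCm38 with STAR 2.7.0e, kept where uniquely mapped, merged by genotype, and peaks were called with MACS2 using summits, before reads were counted per region. Removal of duplicate or mitochondrial reads was not given in the sources used here. The authors' deposited peak lists give, for each summit, a fold over the local background, a −log10 p-value and a score. The score was not used. The caller's equations were solved for the pileup and background.

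TCKO was scaled to the WT total count (56898657 against 34608167), 1 count was added, and 95% Wilson intervals of the TCKO share were turned into ratios. The cutoff was 2-fold. Alternatives were TMM (edgeR 4.0.16, R 4.3.3), median-of-ratios, no scaling, the peak caller's background, a loess fit (span 0.3, statsmodels 0.14.6), a pseudocount of 10, at least 50 counts, a fold of 1.5, no flanks and other locus spans. Letters were searched on both strands, except TATAAA, which was read in the gene's direction only. Named regions were those within 1 kb of a start, the 10 with most counts, and those past the cutoff with at least 50 counts, unless stated. Members, lists and motifs were chosen with earlier results of these data known. The steps were tested on simulated data. Software was scipy 1.17.1, pandas 2.3.3, numpy 2.4.6 and Python 3.11.15.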

Additional observations from a re-analysis of the deposited data

How the results depend on the processing

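No paired analysis was possible because each genotype is 1 merged column of counts, and no replicate could be left out. Without scaling, the *Mmp13* locus was at -1.05, the window sum at -0.54, the window median at -0.45, 13 regions were 2-fold lower and 5 higher. With the peak caller's background these were -0.94, -0.43, -0.35, 11 and 5. The window sum was 0.10 with TMM and 0.11 with median-of-ratios. At a fold of 1.5, 7 regions were lower and 21 higher, and 6 had an interval wholly past 2-fold higher. Without scaling, *Mmp12* (-0.30), *Mmp8* (-0.080), *Mmp27* (-0.49), *Mmp20* (-0.44) and *Mmp7* (-0.15) turned below 0. With the peak caller's background, *Mmp12* (-0.20), *Mmp27* (-0.38), *Mmp20* (-0.33) and *Mmp7* (-0.047) did. With 25 kb on either side, *Mmp3* was at 0.049, *Mmp27* at -0.16 and *Mmp20* at 0.036, with an interval for *Mmp20* that now included 0. *Mmp8* and *Mmp20* had no region within 2 kb of the start. The *Mmp13* ratio stayed below 0 under every scaling and span run, but with 25 kb on either side its interval (-0.24 to 0.09) included 0. The *Mmp10* ratio stayed above 0 in the same runs. Its locus and most regions of its wider span entered the table through a TCKO summit alone, so this is given as a description. Depth limits regions of few counts.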
